A study of Mus musculus with 4 samples.

Results

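The proteasome is the large protease of the cytosol and nucleus that degrades proteins tagged with ubiquitin. Its barrel-shaped core particle is built from rings of alpha and beta subunits (Psma and Psmb genes), with the cutting sites inside the beta rings. A regulatory particle caps the barrel: its base holds a ring of ATPases (Psmc genes) that unfold substrates and thread them into the core, and its lid (most Psmd genes) removes the ubiquitin. In lymphocytes, interferon-induced beta subunits can take the place of the constitutive cutting subunits, which forms the immunoproteasome and shifts the peptides offered to MHC class I molecules, and the alternative caps known as activators (Psme genes) open the core without ATP.

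The proteasome genes were taken from an Affymetrix array study of splenic CD8 T cells as those with a platform symbol of Psma, Psmb, Psmc, Psmd or Psme followed by a digit, leaving out Psmb8 and Psmb9. The rule found 42 of the 18193 genes measured, each read by its brightest probe set among those that name 1 gene. It held 8 alpha and 9 beta genes of the core, 6 base ATPases, 3 other base genes, 8 lid genes, 3 chaperones of base assembly (Psmd5, Psmd9 and Psmd10) and 3 activators. The other 2 matched by their letters alone: Psmc3ip encodes a partner of meiotic recombinases, and Psme3ip1 a protein that binds the activator encoded by Psme3. Psme2 was no member, since its probe set also names Psme2b.

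Both groups were sorted from spleen of B6 animals labelled wild type, with no other allele or agent named, and no age is stated in the labels. Ly49+ cells were sorted as CD44+CD122+Ly49+ (called CD8+ Treg by the submitters) and Ly49- cells as CD44+CD122+Ly49- (called a conventional memory type), with 2 arrays each. The series title concerns the inhibitory activity of regulatory T cells and Helios, and the comparison asks how the 2 sorted populations differ in expression. Nothing states that replicates came from separate mice or sorts, so every p-value here measures the spread between these arrays, which may be technical.

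The deposited values were linear intensities with array medians of 188.5 to 190.4. On the Ly49- replicate 1 array, the 9 older hybridisation control probe sets read at 0.225 to 0.715 of their median over the arrays, while the 9 newer ones for the same spiked transcripts read at 0.972 to 1.05 of theirs. For the genes refitted without single arrays, values that moved by over 1.5 times are given both ways. Of 8 measured T cell markers, Cd3e and Cd8a among them, none was below the highest bacterial control (an intensity of 70.3, used as a level of no specific signal) on any array, and none passed the test. Myeloid markers passed upward in 11 and downward in 2 of 14 genes, with summed intensities of 20331 to 21890.1 on Ly49+ and 13629.7 to 13700.5 on Ly49- arrays. The 2 lower ones were S100a8 and S100a9, and Itgam was below the highest bacterial control on every array. NK cell markers passed upward in 6 of 12 (73312 to 73826 against 60854 to 61269), with the defining NK gene Ncr1 and Klrb1b below the highest bacterial control on every array. Klre1 had mean intensities of 11670 against 2508, while Gzma, which did not pass, had 2648 against 5213. B cell markers passed upward in 1 and downward in 1 of 9 (18758 to 20077 against 18871 to 19947), with Pax5 below that control. Most of these sums came from Ighm, which was read at 13508 and 14523 against 14415 and 15442 and did not pass. Cd22 passed upward (means of 2276 against 1088) and Cd79b downward (2035 against 2475). No marker was at 0.

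Proteasome genes were read at nearly the same level in both populations. A single member, Psmb5, passed the test, as lower in Ly49+ cells (limma adjusted p = 0.0497), and 41 did not. Of all genes, 3.97% passed, 2.04% as lower and 1.93% as higher, so 1 of 42 is close to the background share. The 42 log2 fold changes (Ly49+ minus Ly49-, on log2 of intensity plus 16) had a median of -0.071 beside -0.041 over all genes. They ran from -0.339 in Psmc3ip to 0.070 in Psme3, or from -0.167 without the genes matched by their letters alone. Quantile normalization moved the median of all genes to -0.026 and that of the members to -0.056.

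The intervals limit how far the subunits differed between these arrays. Of the 40 proteasome genes proper, 38 were read above the highest bacterial control, and for all 38 the 95% interval of the fold change lay within 1.25-fold in either direction, a bound chosen after the values were seen. The same held for 62.3% of all genes above that control and for 74.9% of the 9096 genes above the median of mean intensity (the brighter genes). These shares were not matched to the subunits by intensity, and the median SE was 0.044 for the 38 genes and 0.061 for the brighter genes. The remaining pair were the tissue-restricted subunits: Psma8, a testis alpha subunit, was read at 65.6 and 56.1 against 66.9 and 62.2, and Psmb11, the beta subunit of the thymic cortex, at 42.7 and 37.2 against 52.9 and 38. All 8 of these readings were under the bacterial control level, and their plotted differences are not read as changes.

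**Figure D1:**
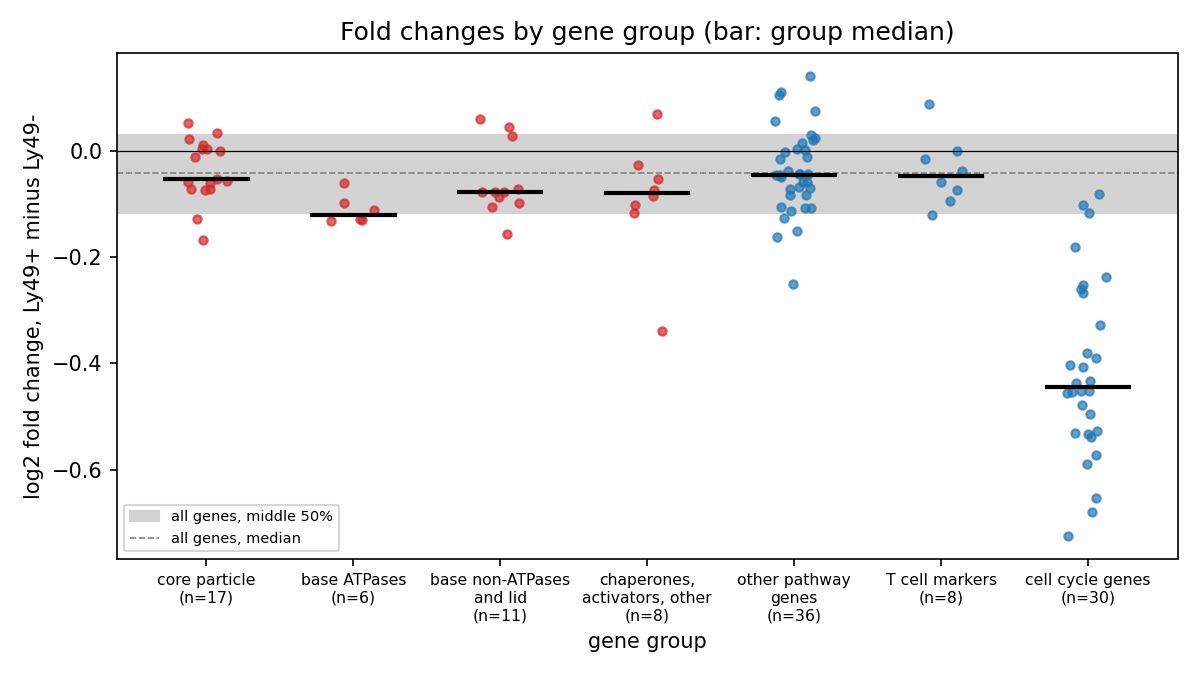
Points are genes, by group along the x axis, with the log2 fold change (Ly49+ minus Ly49-) on the y axis; bars are group medians, the grey band holds the middle 50% of all genes and the dashed line is their median. The proteasome groups (red) lie mostly in the band of all genes, with 3 of the 6 base ATPases below it, while the cell cycle genes lie lower, at a median of -0.444.

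Small differences leaned downward in Ly49+ cells. Read by the brightest probe set, both Ly49+ arrays lay below both Ly49- arrays in 26 of the 42 genes (35.2% of all genes and 45.0% of the brighter genes). They lay above in 0 of 42 (13.2% of all genes and 12.4% of the brighter genes). By limma's unadjusted p, 10 of 42 were under 0.05, all lower, beside 18.1% of all genes in either direction, 13.0% of all genes as lower and 20.2% of the brighter genes as lower. The median difference between replicates was 0.046 among Ly49+ and 0.055 among Ly49- arrays on the log2 scale, and for 20 members the group difference was larger than both. The member median of -0.071 became -0.052 without Ly49+ replicate 2 and -0.053 without Ly49- replicate 2.

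The promoters of 3 genes are printed because they belong to the only member that passed the test, to a second cutting subunit that shares its motif, and to the ATPase with the smallest p. Each is the 150 bases before the RefSeq start on build GRCm38.p6, with motif matches in capitals: Psmb5 at chr14:54617996-54618145 (minus strand), Psmb6 at chr11:70525207-70525356 (plus strand) and Psmc2 at chr5:21785125-21785274 (plus strand).
Psmb5: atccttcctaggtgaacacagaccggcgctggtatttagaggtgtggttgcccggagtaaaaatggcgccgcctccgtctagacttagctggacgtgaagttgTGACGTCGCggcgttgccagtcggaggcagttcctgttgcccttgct
Psmb6: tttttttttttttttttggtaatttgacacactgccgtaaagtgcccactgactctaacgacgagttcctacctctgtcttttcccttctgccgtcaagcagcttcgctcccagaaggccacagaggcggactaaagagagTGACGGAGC
Psmc2: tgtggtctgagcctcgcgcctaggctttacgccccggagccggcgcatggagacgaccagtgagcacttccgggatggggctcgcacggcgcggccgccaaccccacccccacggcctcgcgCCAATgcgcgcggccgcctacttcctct
The capitals in Psmb5 and Psmb6 match TGACNNNGC, the antioxidant response element bound by NRF1 (Nfe2l1), beginning 47 and 9 bases before the start, and those in Psmc2 match the CCAAT box, beginning 28 bases before it. In windows from 250 bases before to 50 after the start, with 1 window a gene, 35 members were matched by symbol. On either strand, TGACNNNGC was found in 17.1% of them and in 12.4% of the 27025 promoters of the table, CCAAT in 42.9% against 38.0%, and the cell cycle element TTTGAA in 8.57% against 18.2%. No printed stretch holds matches of more than 1 of these motifs. Members with a TGACNNNGC match had a median log2 fold change of -0.080 (6 genes) and the others -0.071 (29 genes).

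Among the cutting subunits, Psmb5, which carries the chymotrypsin-like activity, was the gene that passed. Its intensity was 8902 and 9139.8 on the Ly49+ arrays and 10065 and 10192 on the Ly49- arrays. The Ly49+ arrays were both low, with no overlap, and lay 10.9% below the Ly49- arrays (log2 fold change -0.167 ± 0.038 SE, 95% interval -0.254 to -0.080, n = 2 arrays a group, limma adjusted p = 0.0497). This call sits at the threshold and was lost when any 1 array was left out: the limma adjusted p was 0.329 and 0.205 on dropping Ly49+ replicate 1 or 2, and 0.130 and 0.216 on dropping Ly49- replicate 1 or 2. It was also lost after quantile normalization (limma adjusted p = 0.075), with a pseudocount of 64 (0.056) and in a fit over single probe sets (0.126). The same held with the probe sets of each gene averaged (0.065), without probe sets open to cross-hybridisation (0.053) and without letting the spread follow intensity (0.253). Psmb5 has 1 probe set, so the averaging and the removal left its own readings as they were and changed only other genes. The log2 fold change of Psmb5 stayed between -0.186 and -0.148 under each of the 13 alternative fits. Fits that changed only the probe sets, the genes tested, the spread or the block left it at -0.167 by construction.

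The remaining constitutive cutting subunits did not pass. Psmb6, the caspase-like subunit, was read at 13429.5 and 13019 against 13749 and 13812 (Ly49+ against Ly49-), with no overlap, a log2 fold change of -0.060 (95% interval -0.140 to 0.021) and an adjusted p of 0.431. Psmb7, the trypsin-like subunit, was read at 7282 and 6624 against 7113 and 6459, so its groups overlapped, with replicate 1 higher in both (log2 fold change 0.035, 95% interval -0.105 to 0.175, adjusted p = 0.828). Psmb7 changed sign without Ly49+ replicate 1 (-0.033) or Ly49- replicate 2 (-0.034), and stood at 0.103 without Ly49+ replicate 2 and at 0.105 without Ly49- replicate 1. Psmb6 was at -0.037 without Ly49+ replicate 2.

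Psmb10, the interferon-induced counterpart of Psmb7, was read at 10619 and 10750.3 against 10799 and 11432. Its Ly49+ arrays lay just below the lower Ly49- array, and the gene did not pass (log2 fold change -0.056, 95% interval -0.150 to 0.037, adjusted p = 0.527). The value for Psmb10 was -0.097 without Ly49- replicate 1 and -0.015 without Ly49- replicate 2. The other induced subunits, no members by the rule, were Psmb9 at 8694 and 8988 against 9664 and 9631 (log2 fold change -0.126, adjusted p = 0.128) and Psmb8 at 13399 and 13609 against 14096 and 15017 (-0.107, or -0.062 without Ly49- replicate 2, adjusted p = 0.207). The balance of induced to constitutive subunit, taken as a log2 ratio within each array, was higher in Ly49+ cells by 0.059 for Psmb8 to Psmb5 and differed by -0.066 for Psmb9 to Psmb6 and by -0.091 for Psmb10 to Psmb7. These 3 ratios were chosen after the data were seen, and the groups overlapped for the last. The two-sided exact permutation p was 0.333, 0.333 and 0.667 (0.50, 0.50 and 0.667 adjusted over the 3), where 0.333 is the smallest that 2 against 2 arrays allow. Single arrays moved all 3 differences. That of Psmb8 to Psmb5 was 0.023 without Ly49- replicate 1 and 0.096 without Ly49- replicate 2. That of Psmb9 to Psmb6 was -0.020 without Ly49+ replicate 1 and -0.113 when Ly49+ replicate 2 was dropped. For Psmb10 to Psmb7 the difference was -0.014 or -0.168 when Ly49+ replicate 1 or 2 was dropped, and -0.202 or 0.019 when Ly49- replicate 1 or 2 was.

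The non-cutting beta genes, which shape the rings, did not pass: Psmb1 differed by -0.053, Psmb2 by 0.023, Psmb3 by 0.004 and Psmb4 by 0.005, with adjusted p of 0.502 to 0.975. The alpha genes, whose rings gate the entry to the core, did not pass either. Psma7, the alpha gene with the smallest p, was read at 10291 and 10386 against 10730.0 and 11028, with no overlap (log2 fold change -0.073, adjusted p = 0.35). The 7 alpha genes above the bacterial controls ran from -0.073 to 0.053 with a median of -0.011, 4 lower and 3 higher, and 0 passed limma's test (0 at an unadjusted p under 0.05). Of all genes, 3.97% passed and 18.1% reached that unadjusted level, and 7 genes are too few to be told apart from these shares.

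**Figure D2:**
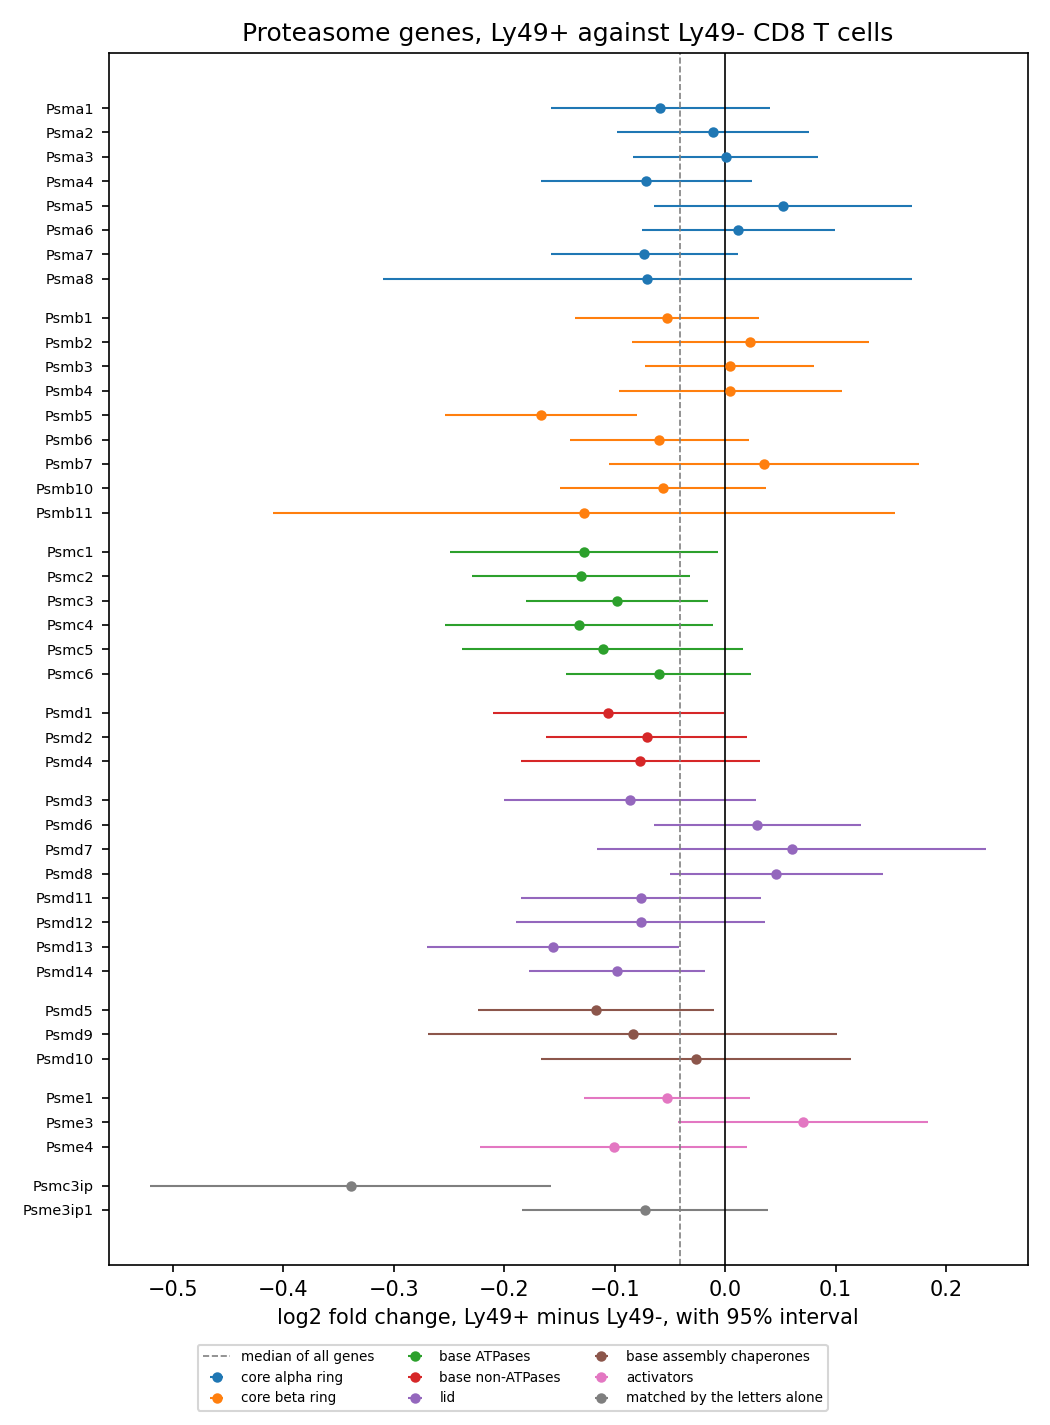
Each point is the log2 fold change of 1 proteasome gene (x axis, Ly49+ minus Ly49-) and its bar the 95% interval from limma; colours mark the subunit groups and the dashed line is the median of all genes. Psmb5 and the ATPases Psmc1 to Psmc4 are among the genes with intervals below 0, while the core alpha genes lie on both sides of it, and the points of Psma8 and Psmb11 come from readings below the bacterial controls.

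The base ATPases, the motor of the regulatory particle, had lower means in Ly49+ cells in each case. All 6 had both Ly49+ arrays below both Ly49- arrays, as had 35.2% of all genes and 45.0% of the brighter genes. Their log2 fold changes ran from -0.132 to -0.060 with a median of -0.119, yet 0 of 6 passed limma's test (4 at an unadjusted p under 0.05, a level reached as lower by 13.0% of all genes and 20.2% of the brighter genes). Psmc2, with the smallest p, was read at 6567 and 6882 against 7427 and 7293, which is 8.64% lower in Ly49+ cells (log2 fold change -0.130 ± 0.043 SE, adjusted p = 0.152). With the mean of its 3 probe sets, Psmc2 differed by only -0.020. Psmc3 was read at 11002 and 10996 against 11642 and 11907, Psmc4 at 6918 and 6432 against 7577 and 7057 and Psmc1 at 5529.7 and 5083 against 5679 and 5912. Psmc4 and Psmc1 were less clear-cut, since their Ly49+ arrays differed from each other by nearly as much as the groups. Psmc5 differed by -0.111 and Psmc6 by -0.060. All 6 stayed lower under each of the 13 alternatives run, with medians from -0.120 to -0.086. Most alternatives could not have turned a sign. Some changed only the spread or the genes tested, and without overlap neither a lost array nor another pseudocount could do so.

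The non-ATPase genes of the base had lower means in Ly49+ cells as well. Psmd1, a scaffold subunit, was read at 4867 and 4823 against 5104 and 5327 (log2 fold change -0.106, adjusted p = 0.274). Psmd2, the other large scaffold, differed by -0.071 and Psmd4, a ubiquitin receptor, by -0.077. None of the 3 passed. All 3 were lower without overlap, as were 35.2% of all genes and 45.0% of the brighter genes.

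The lid was mixed. Psmd13, the lid gene with the smallest p, was read at 3389 and 3545 against 3869.6 and 3857, 10.2% lower in Ly49+ cells without overlap (log2 fold change -0.156, 95% interval -0.270 to -0.042, adjusted p = 0.141). Its next brightest probe set gave -0.064 with overlapping groups. Psmd14, the deubiquitinase that strips ubiquitin from substrates, was read at 11974 and 12038 against 12735 and 12966 (log2 fold change -0.098, adjusted p = 0.185). Psmd3, Psmd11 and Psmd12, structural lid genes, lay between -0.086 and -0.076, and their groups did not overlap either. The gap was narrow for Psmd11, at 5790 and 6110 against 6411 and 6136, and for Psmd12, at 6106 and 5987 against 6136 and 6628. In both genes, the replicates of 1 group differed by more than the groups did. Psmd6 (0.029), Psmd8 (0.046) and Psmd7 (0.060) had higher means in Ly49+ cells with overlapping groups. Of the 8 lid genes, 5 were lower without overlap, as were 35.2% of all genes and 45.0% of the brighter genes. Limma's test was passed by 0 of the 8. At an unadjusted p under 0.05 there were 2, both lower, a level reached as lower by 13.0% of all genes and 20.2% of the brighter genes.

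Over the regulatory particle as a whole, 17 genes of base and lid had a median of -0.086 and 14 did not overlap between groups, all lower. The 15 core genes above the bacterial controls had a median of -0.011, and 7 did not overlap, all lower. Of all genes 35.2%, and of the brighter genes 45.0%, were lower without overlap, so the share in the core is close to that of the brighter genes. The regulatory median was the lower under each of 13 alternatives, with ranges of -0.111 to -0.070 against -0.045 to 0.010. Alternatives that changed only the spread, the block or the genes tested left these medians as they were. No test of this difference was made, and the median of the brighter genes, -0.053, lies between both.

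**Figure D3:**
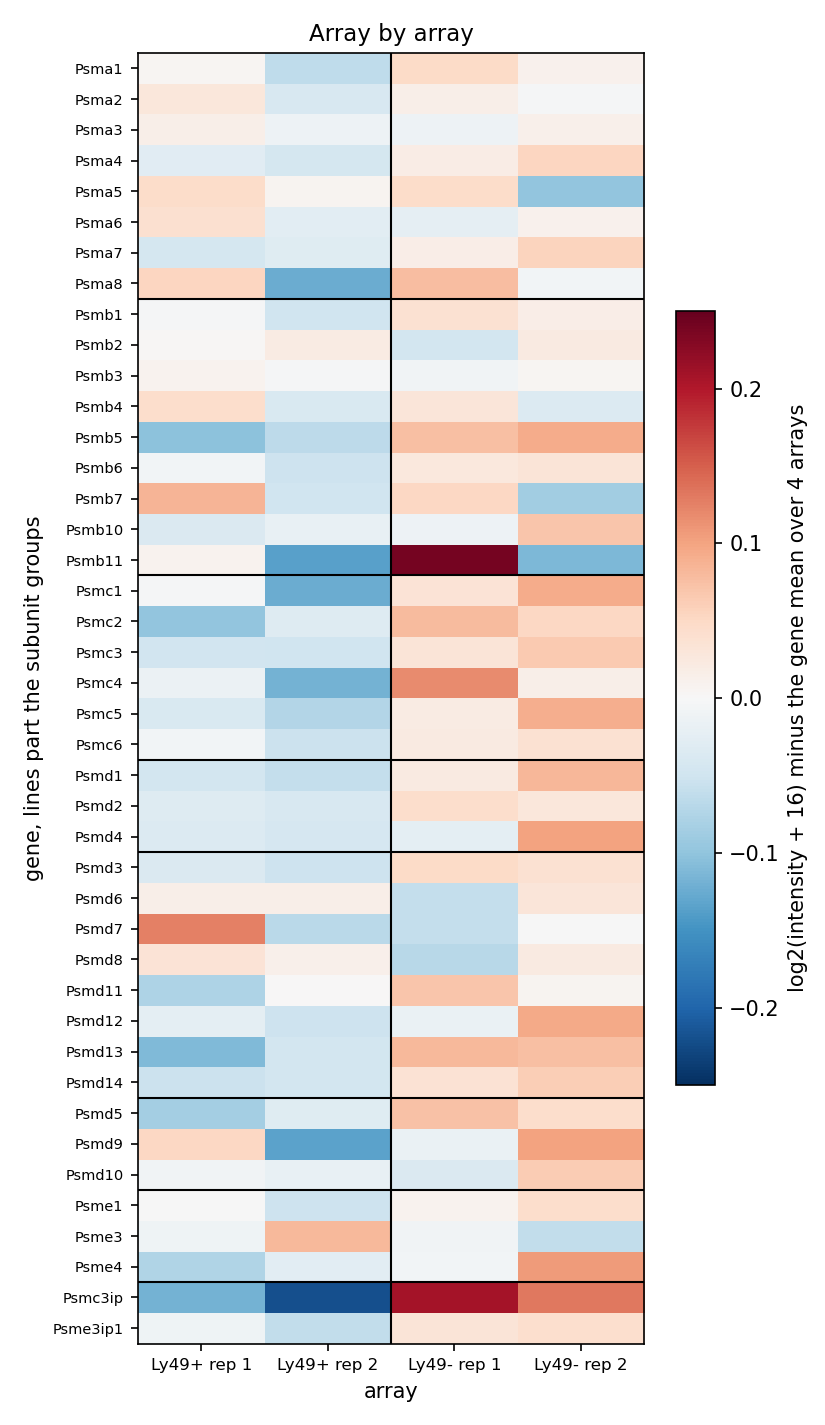
Colour gives each gene's log2(intensity + 16) on an array minus its mean over the 4 arrays (red higher, blue lower); rows are genes, columns arrays and lines part the subunit groups. The 6 ATPase rows are below 0 (from near white to blue) in both Ly49+ columns and above 0 in both Ly49- columns, while several alpha and beta rows change sign between replicates.

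Seen by array, the median deviation of the 38 subunit genes above the bacterial controls from their own means was -0.010 and -0.043 on Ly49+ replicates 1 and 2 and 0.021 and 0.038 on Ly49- replicates 1 and 2. All genes gave -0.022, -0.022, 0.024 and 0.018 in the same order. The subunits lay closer to 0 than all genes on both replicate 1 arrays and farther from 0 on both replicate 2 arrays. For the 30 measured cell cycle genes the same medians were -0.211, -0.242, 0.181 and 0.262.

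The chaperones that assemble the base did not pass. Psmd5 was read at 4393 and 4564 against 4904 and 4809.8, with no overlap (log2 fold change -0.117, adjusted p = 0.234). Psmd9 differed by -0.084 and Psmd10 by -0.027, both with overlapping groups. Among the activators, Psme1, a subunit of the interferon-induced cap PA28, was read at 24694 and 23859.8 against 24855 and 25499 (log2 fold change -0.053, 95% interval -0.127 to 0.022, adjusted p = 0.453), and its difference was -0.028 without Ly49+ replicate 2 and -0.034 without Ly49- replicate 2. The probe set shared by its partner Psme2 and by Psme2b differed by -0.006 (limma adjusted p = 0.958 in a fit over single probe sets). Psme3, the nuclear activator, had the highest fold change of all members, at 5403 and 5759.6 against 5411 and 5215 with overlapping groups (0.070, adjusted p = 0.515). That value was 0.116 or 0.024 when Ly49+ replicate 1 or 2 was dropped, and 0.044 when Ly49- replicate 2 was. Psme4, which encodes PA200, was read at 4640.5 and 4801 against 4868 and 5267 (-0.101, adjusted p = 0.365), and the mean of its 6 probe sets gave 0.054. Its brightest probe set gave -0.158 or -0.044 when Ly49- replicate 1 or 2 was dropped.

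Psmc3ip, which is no proteasome subunit, had the largest difference under the rule. Its intensity was 865 and 805 on the Ly49+ arrays and 1089 and 1032 on the Ly49- arrays, with no overlap. It was 21% lower in Ly49+ cells and missed the threshold (log2 fold change -0.339 ± 0.080 SE, 95% interval -0.520 to -0.158, limma adjusted p = 0.0549). It passed among the brighter genes (adjusted p = 0.045), with a robust spread (0.039) and with replicate number as a block (0.012), and its other probe set gave -0.249. On the same arrays, 21 of 30 cell cycle genes passed as lower, with summed intensities of 71467 to 74197 against 87819 to 89084, and their part in this result was not tested. Psme3ip1 differed by -0.073 (adjusted p = 0.488).

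Further probe sets of the same genes were read one by one. Of the 42 members, 20 had 1 probe set and 22 had several, with 46 probe sets beside the brightest. Of these, 41 were above the bacterial controls, 26 of which had the sign of the brightest. None passed among 45037 probe sets tested with limma. In that fit the only probe set of Psmb5 did not pass either (limma adjusted p = 0.126). Of the 41, 3 had an unadjusted p under 0.05, in Psmc4, Psmd11 and Psmc3ip, the last no proteasome subunit. The share over all probe sets was not counted at either level, so these counts have no background beside them. In the main fit over genes, read by their brightest probe sets, 3.97% passed and 18.1% reached an unadjusted p under 0.05. The further probe set of Psmc4 gave -0.171 and the bright further one of Psmc2 -0.101, both with the sign of the brightest, while a dim one of Psmc2 gave 0.171. Bright further probe sets of Psmb3, Psmd6 and Psme3 had both Ly49+ arrays above both Ly49- arrays. Others, such as those of Psma7, Psmc4 and Psmd4, had both below. For Psme4 the probe sets ran from -0.101 to 0.232, so its direction depends on the probe set read.

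**Figure D4:**
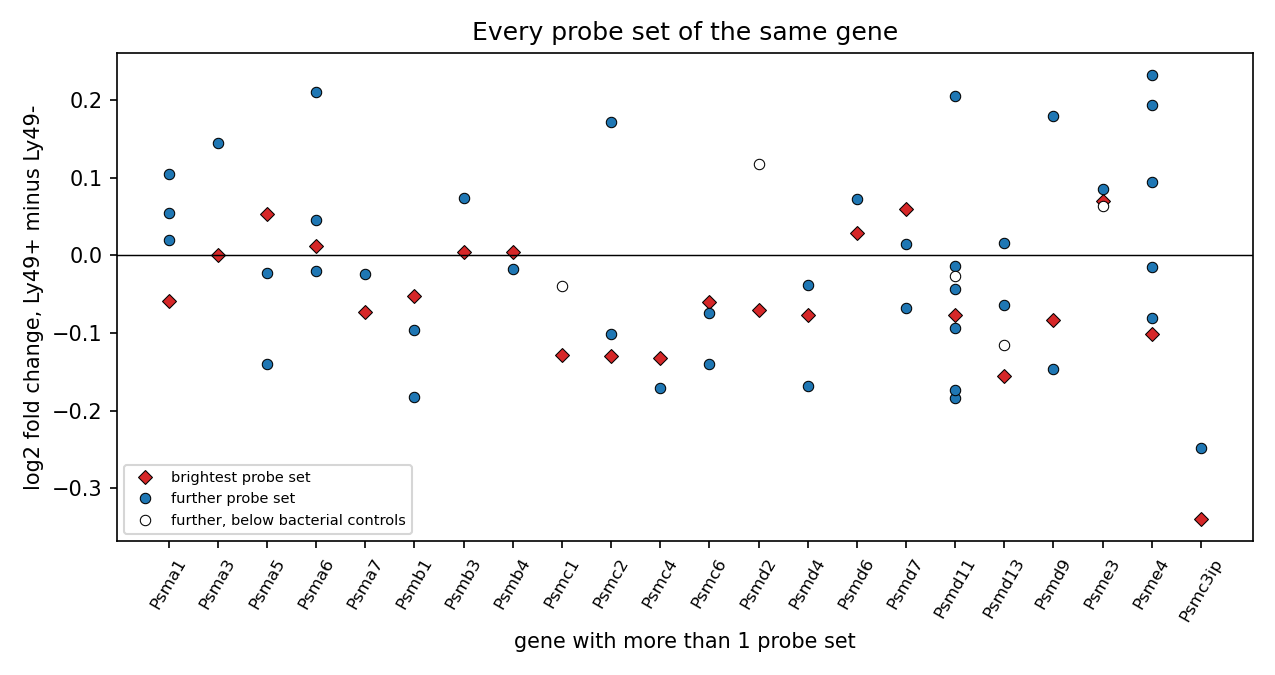
Each column is a gene with more than 1 probe set (x axis) and each mark the log2 fold change (Ly49+ minus Ly49-) of 1 probe set: red diamonds are the brightest, blue circles further ones and open circles further ones below the bacterial controls. Marks of Psmc4, Psmc6 and Psmd4 lie on 1 side of 0, while those of Psme4, Psmd11 and Psma6 lie on both.

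Genes that build, feed or induce the proteasome gave few calls as well. The list held 48 symbols, with an older and a newer symbol for some genes, and 36 genes were measured. Of these, 1 passed as lower and 35 did not pass (2.04% of all genes passed as lower), with a median of -0.044. The gene that passed was Ngly1, a cytosolic deglycosylase that acts on the precursor of the transcription factor NRF1. It was read at 4706 and 4919 against 5861 and 5587 (log2 fold change -0.249 ± 0.049 SE, adjusted p = 0.0253), with both Ly49+ arrays low. Its call was lost on dropping any 1 array, where its log2 fold change lay between -0.284 and -0.215. It was also lost without letting the spread follow intensity (limma adjusted p = 0.151). Nfe2l1, which encodes NRF1, the inducer of proteasome genes, had a higher mean in Ly49+ cells, at 3549 and 3926 against 3509 and 3259 without passing (0.142, 95% interval -0.005 to 0.289, adjusted p = 0.295). Its difference was 0.214 or 0.069 when Ly49+ replicate 1 or 2 was dropped, and 0.089 when Ly49- replicate 2 was. The 5 chaperones of core assembly measured (Psmg1 to Psmg4 and Pomp) ran from -0.105 to -0.002, and 0 passed limma's test (0 at an unadjusted p under 0.05). Of all genes, 3.97% passed and 18.1% reached that unadjusted level, and 5 genes are too few to be told apart from these shares.

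The 3' to 5' ratio of the Actb control probe sets was 1.26 and 1.29 on the Ly49+ arrays and 1.37 and 1.34 on the Ly49- arrays, and that of Gapdh 1.71 and 1.70 against 1.74 and 1.75, so both were lower on Ly49+ arrays. The myeloid, NK cell and cell cycle lists had medians of 0.647, 0.236 and -0.444, and the T cell list -0.048. The part of RNA quality, other cells or cycling cells in the lean of the subunits was not tested. In sorted cells measured in bulk, fewer cells of a type and less RNA per cell cannot be told apart.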

How the data were processed

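The authors deposited linear intensities per probe set from 4 Affymetrix arrays. Their normalization is not stated in the labels. Of 45101 probe sets, 34945 named 1 gene in the platform annotation of 2016, 932 named several, 9160 were not listed and 64 were controls, left out of the gene tests. The brightest probe set by mean over the arrays stood for each of 18193 genes. Values were taken as log2(intensity + 16), so folds of dim genes are understated, and tested with limma 3.58.1 in R 4.3.3 with group as the only term, a trend of the spread, 2 residual and 6.66 prior degrees of freedom, and Benjamini-Hochberg adjustment over all genes at 0.05. The test was tried on simulated data. Intervals are limma's 95% intervals, and with 4 arrays the precision is low.

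Members, lists and the rule for named genes were chosen with earlier results of these data known. Named were members past the threshold, the smallest p of each subunit group, the cutting subunits, Psme1, the highest and lowest fold changes, and Psmb8, Psmb9, Nfe2l1 and called genes of the other pathway list. Others were named after their values were seen. Alternatives were quantile normalization, no pseudocount or one of 64, the genes above the median of mean intensity alone, averaging over probe sets of 1 gene, leaving out those named _x_at or _s_at (open to cross-hybridisation), a spread without trend, a robust spread, a replicate block, each array left out (a lone array being assumed to vary like the other group), and an adjusted p under 0.1. Promoter windows came from RefSeq (GRCm38.p6).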

Additional observations from a re-analysis of the deposited data

How the results depend on the processing

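The count of proteasome genes passing limma's test, 1 of 42, became 0 after quantile normalization, with a pseudocount of 64, with the mean of each gene's probe sets, without probe sets open to cross-hybridisation and without a trend of the spread (3 to 10 at an unadjusted p under 0.05), and 2 (Psmb5 and Psmc3ip) among the brighter genes, with a robust spread, with the replicate block and at an adjusted p under 0.1. Of all genes tested, 2.03% to 3.76% passed in the fits that gave 0 and 4.75% to 8.43% in those that gave 2. The shares of all genes at an unadjusted p under 0.05 were not counted for these fits. Without any 1 array, a group held a lone array, and fewer genes passed, among members as over all genes. The member median lay between -0.080 and -0.052 without 1 array, and that of all genes between -0.046 and -0.037. The count over all genes, 723, became 370 without a trend, 1533 with the replicate block, 1252 at an adjusted p under 0.1, and 100 to 281 without 1 array. For the other pathway genes the count of 1 became 0 without a trend and 0 to 0 without 1 array. Fewer arrays or looser thresholds change counts by construction; otherwise the cause was not tested.

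Nothing states that same-numbered replicates were paired, so the main fit did not treat them as pairs. Their deviations correlated at 0.25 across genes, and with 2 pairs a shared replicate effect was not tested. No named gene that passed the test in any fit changed sign under these alternatives. Psmb5, Psmc3ip and Ngly1 did not overlap between groups, so most alternatives could not have turned their sign. With 2 arrays a group, differences under about 0.1 on the log2 scale were near the spread of single members.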
